A study of Mus musculus with 8 samples.

Results

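The 10 genes described here encode the urea cycle and the enzymes that feed ammonia into it or take up what it leaves: Cps1, Otc, Ass1, Asl, Arg1, Nags, Glul, Gls2, Oat and Slc25a15. They were chosen by symbol, for their function, from the 23282 gene rows of each library, and all 10 were found. Each of 8 libraries held RNA from the liver or the uterus of mice of the outbred CD-1 stock, all female, that had been ovariectomized at 6 weeks of age and rested for 1 week. The 4 groups per tissue had received bisphenol A (BPA, a plastics monomer with weak estrogenic activity) at 200 mg/kg daily, Korean red ginseng (KRG, steamed and dried ginseng root) with a daily dose of 1.2 g/kg, BPA with KRG at the same doses, or neither (the ovariectomized control), by mouth for 7 days, with 1 library per group. All groups, controls included, lacked ovaries, and no intact animal was analysed here. The labels do not say what the controls were dosed with, how many animals went into a library, or whether the liver and the uterus of a treatment came from the same animals. Libraries were made with QuantSeq, a kit that reads the 3' ends of polyadenylated transcripts, so that levels are given as counts per 1000000 of the column total (CPM) with no division by transcript length.

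The urea cycle turns ammonia, released when amino acids are broken down, into urea that the kidney can excrete. It runs in hepatocytes, partly in mitochondria (Nags, Cps1, Otc) and partly in the cytosol (Ass1, Asl, Arg1), with Slc25a15 carrying ornithine and citrulline across the inner membrane. Liver divides this work along the lobule: hepatocytes near the portal vein carry the cycle and Gls2, which frees ammonia from glutamine, whereas the last hepatocytes before the central vein carry Glul, which fixes remaining ammonia into glutamine, and Oat, which turns ornithine into glutamate.

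Sequence bears on the reading of 1 member at once. Ass1, the enzyme that joins citrulline and aspartate, lies on chr2:31470207-31520672 (plus strand, GENCODE release 21 on GRCm38, the assembly that mm10 names) and has 16 exons, 14 of them coding. Gm5424, annotated as a processed pseudogene, is 1 exon at chr10:62071123-62072362 (plus strand) and matches the 1239 coding bases of Ass1 with 6 differing bases (99.5% identity). The match to the GENCODE exon of Gm5424 ends at base 1442 of the 1696 of the Ass1 transcript, short of the 3' end that QuantSeq reads. RefSeq annotates Gm5424 over 1550 bases, to base 62072571, past the 3' end of the GENCODE exon. The bases beyond that exon were not compared, so whether the match goes on toward the 3' end is not known here. Counted from 1 at the A of the Ass1 start codon, with the Ass1 base first, the differences are T399C, T429C, A520T, G656C, T1011C and C1143T. A stretch of 120 coding bases (positions 429 to 548) shows how alike the copies are, with the differing bases in capitals:
Ass1: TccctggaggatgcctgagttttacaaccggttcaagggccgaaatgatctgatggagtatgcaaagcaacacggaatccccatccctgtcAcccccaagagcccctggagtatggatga
Gm5424: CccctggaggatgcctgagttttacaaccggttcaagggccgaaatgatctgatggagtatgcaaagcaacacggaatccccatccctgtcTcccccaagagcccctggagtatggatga

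The promoters available for 6 of the 10 members are shown for a member that was nearly restricted to liver and the pair that was high in both tissues. Each window runs from 250 bases before to 50 bases after an annotated start (RefSeq annotation of GRCm38.p6), 5' to 3' along the gene. Capitals mark CCAAT and GGGCGG matches on either strand (ATTGG and CCGCCC on the other strand). The Otc window is set on base 10252305, the GENCODE start of Otc, whereas the RefSeq record of the gene begins at base 10252230. Otc is on the plus strand at chrX:10252055-10252354, Glul on the plus strand at chr1:153899679-153899978 and Oat on the minus strand at chr7:132576349-132576648:
Otc: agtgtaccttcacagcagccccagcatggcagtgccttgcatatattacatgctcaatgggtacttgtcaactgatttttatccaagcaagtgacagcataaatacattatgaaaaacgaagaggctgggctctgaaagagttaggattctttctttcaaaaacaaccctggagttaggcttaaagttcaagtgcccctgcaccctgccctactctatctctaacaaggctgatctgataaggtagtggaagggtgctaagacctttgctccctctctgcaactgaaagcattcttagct
Glul: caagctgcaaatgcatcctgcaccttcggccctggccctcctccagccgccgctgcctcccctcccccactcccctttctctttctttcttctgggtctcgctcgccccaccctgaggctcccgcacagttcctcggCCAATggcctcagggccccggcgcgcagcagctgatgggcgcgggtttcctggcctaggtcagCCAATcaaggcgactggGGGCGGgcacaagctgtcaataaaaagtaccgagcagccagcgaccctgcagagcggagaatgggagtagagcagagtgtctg
Oat: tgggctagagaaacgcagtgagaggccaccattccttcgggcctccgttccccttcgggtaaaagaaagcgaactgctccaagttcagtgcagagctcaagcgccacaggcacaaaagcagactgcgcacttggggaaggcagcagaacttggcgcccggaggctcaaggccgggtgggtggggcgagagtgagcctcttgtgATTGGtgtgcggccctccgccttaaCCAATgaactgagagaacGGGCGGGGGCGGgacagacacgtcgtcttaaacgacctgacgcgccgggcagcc
The Otc window held neither motif, no TATAAA, 1 CpG and 44.3% G and C. Glul held 2 CCAAT and 1 GGGCGG at 64.3% G and C, and Oat held 2 of each at 61.7%. Among all 32851 RefSeq promoter windows of 300 bases, 37.4% had CCAAT, 13.6% TATAAA and 35.7% GGGCGG on either strand, and the median window had 52.7% G and C and 7 CpG. Otc stood alone in its low G and C: Ass1 (74.0% G and C, 27 CpG), Nags (57.7%, 14 CpG) and both windows of Slc25a15 (79.0% and 60.7%) were G and C rich like Glul and Oat, and had GGGCGG and no CCAAT or TATAAA. These matches describe the letters in the windows and were not tested against the levels.

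Column totals were 12372073 to 15290950 counts, and 14994 to 17312 genes had a count. The libraries carried the markers of their labelled tissues: Alb stood at 11550 to 15211 CPM in livers, and Hoxa11 and Pgr, which mark uterus, were at 74.8 to 128 and 49.3 to 121 CPM in uteri and at 0 to 0.07 CPM in livers. Transcripts of other tissues varied between libraries. The 12 hepatocyte markers found in the files summed to 151, 2003, 202 and 861 CPM in the BPA, KRG, BPA with KRG and control uteri, and Alb stood there at 4.81, 407, 2.09 and 239 CPM. In each uterus given BPA 2 of the 12 were at 0 counts, and in the other uteri none was. The control and KRG uteri thus held far more hepatocyte transcripts than both uteri given BPA. Of the sums, Hp alone gave 109 CPM in the BPA uterus and 147 CPM in the BPA with KRG uterus. Hp did not follow the split in full, at 516 CPM in the KRG uterus but 105 CPM in the control uterus. In livers, acinar pancreas markers summed to 1037, 8.43, 5.90 and 1.63 CPM in the BPA, KRG, BPA with KRG and control libraries, and skeletal muscle markers to 2.93, 508, 1.70 and 183 CPM. In the same order, neutrophil markers summed to 9.56, 20.6, 103 and 8.96 CPM, Kupffer cell and macrophage markers to 345, 533, 677 and 471 CPM and erythroid markers to 7345, 5399, 1781 and 3746 CPM, so that the liver given both agents stood apart.

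The first step of urea synthesis is served by Cps1 (chr1:67123026-67231259, plus strand), which condenses ammonia and bicarbonate into carbamoyl phosphate, and by Nags (chr11:102145513-102149477, plus strand), which makes N-acetylglutamate, the activator that Cps1 requires. Cps1 stood at 838, 858, 952 and 862 CPM in the BPA, KRG, BPA with KRG and control livers, from 10874 to 13181 counts, and at 0, 27.2, 0.07 and 11.3 CPM in the uteri in the same order. Its liver levels were nearly level, whereas its uterine counts came almost wholly from the KRG and control libraries. Nags stood at 51.7, 50.6, 72.7 and 63.7 CPM in the BPA, KRG, BPA with KRG and control livers and at 0, 1.15, 0 and 1.12 CPM in the uteri. The livers given BPA alone or KRG alone were the lower pair for Nags.

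**Figure D1:**
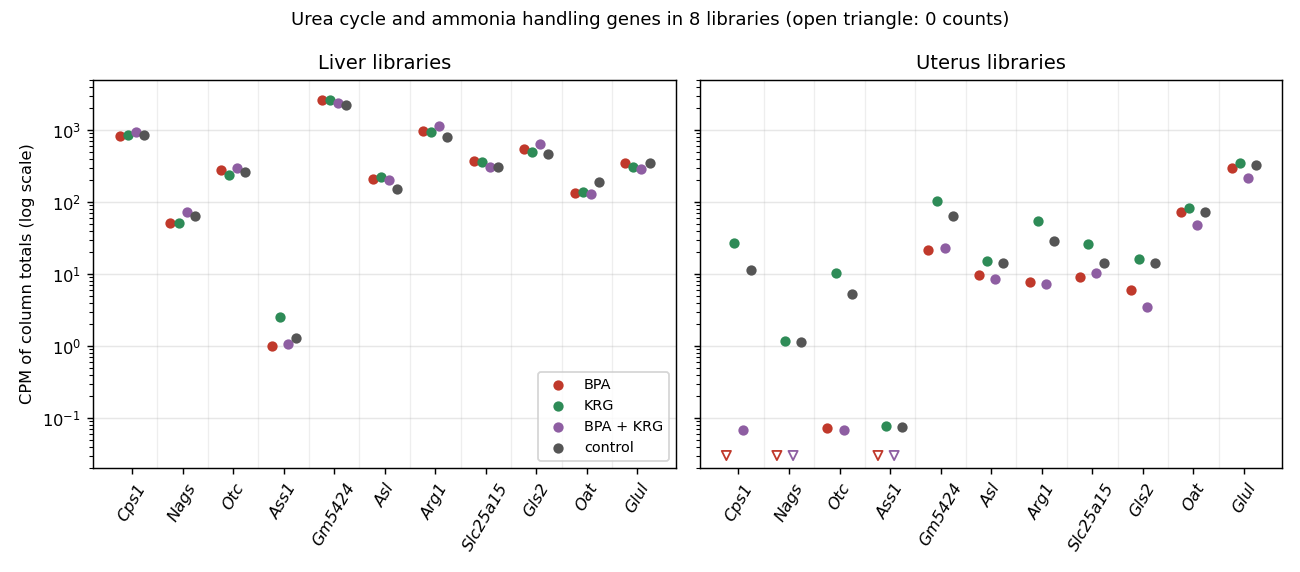
Levels of the 10 members and of Gm5424 in each library, as CPM of the column total on a log scale, livers on the left and uteri on the right; each point is 1 library, coloured by treatment, and an open triangle marks 0 counts. Liver levels form tight clusters, the 0 counts are in uteri given BPA, and Glul alone has overlapping levels in both tissues.

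Otc (chrX:10252305-10321024, plus strand), which adds carbamoyl phosphate to ornithine to give citrulline, stood at 281, 240, 299 and 259 CPM in the BPA, KRG, BPA with KRG and control livers, and at 0.07, 10.4, 0.07 and 5.23 CPM in the uteri. Slc25a15 (chr8:22375551-22398597, minus strand), the ornithine and citrulline carrier that supplies it, stood at 373, 360, 309 and 307 CPM in the livers and at 9.11, 26.3, 10.3 and 14.1 CPM in the uteri. The liver given BPA with KRG matched the control for Slc25a15, and the livers given 1 agent were above both.

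Ass1 had only 13, 37, 13 and 20 counts in the BPA, KRG, BPA with KRG and control livers (1.00, 2.54, 1.05 and 1.31 CPM) and 0, 1, 0 and 1 counts in the uteri. Gm5424, which was looked up after its values were seen, had 33940, 38280, 29158 and 33777 counts in the same livers (2616, 2623, 2357 and 2209 CPM) and 298, 1363, 339 and 862 counts in the uteri (21.7, 105, 22.9 and 64.4 CPM). Gm5424 ranked 47th of all rows by mean liver level and Ass1 10858th. The Ass1 row held 0.038% to 0.097% of the counts of both rows in the livers. How reads that match more than 1 place were assigned is not given in the sources used here, so the counts cannot be split between gene and pseudogene and both rows are uncertain. Summed, they averaged 2453 ± 204 CPM in liver (SD, n = 4 libraries, 1 per treatment), above every other member, and 53.5 ± 39.7 CPM in uterus (SD, n = 4).

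Asl (chr5:130011258-130029247, minus strand), which splits argininosuccinate into arginine and fumarate, stood at 208, 219, 201 and 152 CPM in the BPA, KRG, BPA with KRG and control livers and at 9.69, 15.1, 8.65 and 14.0 CPM in the uteri. The control was the lowest liver. Arg1 (chr10:24915221-24927484, minus strand), which releases urea from arginine and returns ornithine, stood at 972, 940, 1148 and 801 CPM in the livers and at 7.72, 55.0, 7.23 and 28.7 CPM in the uteri. The control was again the lowest liver, and the uteri given BPA were the lowest uteri.

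Gls2 (chr10:128194457-128210004, plus strand), the liver type of glutaminase, stood at 544, 489, 630 and 468 CPM in the BPA, KRG, BPA with KRG and control livers and at 5.98, 16.01, 3.51 and 14.0 CPM in the uteri. Its exons overlap those of Spryd4 on the opposite strand, which stood at 140 to 198 CPM in livers and 5.88 to 10.98 CPM in uteri, and since no source used here says whether counting used strand, reads in the overlap cannot be told apart. The pericentral pair differed from these genes in the uterus. Glul (chr1:153899944-153909723, plus strand) stood at 352, 309, 288 and 346 CPM in the BPA, KRG, BPA with KRG and control livers, and at 301, 343, 214 and 329 CPM in the uteri, with the tissues overlapping. Oat (chr7:132557478-132576398, minus strand) stood at 132, 137, 130 and 187 CPM in the livers and at 72.7, 82.5, 48.3 and 73.1 CPM in the uteri. The control had the highest Oat of the livers, and the other 3 lay close together. An annotated pseudogene, Glns-ps1, resembles Glul (96.8% identity) and was not counted here. Glul also shares bases with Teddm2 on the opposite strand, which had 0 to 0.29 CPM.

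By mean CPM over the 4 livers the members ran in the order Arg1 (965 ± 143), Cps1 (878 ± 50.6), Gls2 (533 ± 72.3), Slc25a15 (338 ± 34.2), Glul (324 ± 30.4), Otc (270 ± 25.6), Asl (195 ± 29.6), Oat (146 ± 27.1), Nags (59.7 ± 10.5) and Ass1 (1.47 ± 0.72; SD, n = 4 each, the spread including the treatments). The ranges of Arg1 and Cps1 overlapped, as did those of Slc25a15 and Glul, of Glul and Otc, and of Asl and Oat. The other neighbours in this order did not overlap. The 10 members summed to 3754, 3607, 4031 and 3448 CPM in the BPA, KRG, BPA with KRG and control livers.

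The comparison of the tissues, 4 livers against 4 uteri, asked how far each member is a liver transcript. All 10 members were higher in liver by edgeR's quasi-likelihood test at an adjusted p under 0.05, where 32.3% of the 13692 genes tested were higher and 72.5% were called in either direction. Cps1, Otc, Nags and Ass1 passed the filter on low counts through their livers and could hardly have been anything but higher, so the count describes these genes and supports nothing further. The median log2 difference of the members was 6.04, against -0.18 over all genes tested. With column totals in place of TMM factors the median of all genes was -1.12, a shift of 0.94, so a log2 difference is to be read against that background.

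Nags had a log2 difference of 7.65 ± 0.72 (SE), Cps1 of 7.41 ± 1.67, Otc of 7.01 ± 1.27, Gls2 of 6.68 ± 0.55 and Arg1 of 6.20 ± 0.76. For Nags, Cps1, Otc and Ass1 no p-value is printed, since the filter admitted them through their livers. Ass1 had 5.88 ± 0.67, Slc25a15 5.43 ± 0.41 and Asl 4.98 ± 0.27. Oat and Glul had by far the smallest differences, 2.02 ± 0.20 (adjusted p = 2.0e-05) and 1.08 ± 0.20 (adjusted p = 0.00092). The Glul call was lost with column totals, where its log2 difference was 0.13 (adjusted p = 0.52). In 9 members, all but Glul, each of the 4 livers was above each of the 4 uteri in CPM, which held for 14.6% of all genes tested. Since Cps1, Otc, Nags and Ass1 were admitted through their livers, their part of this count supports nothing further. Bulk libraries cannot tell fewer cells of a type from less RNA per cell.

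Within a treatment the liver level exceeded the uterus level by very different factors. Cps1 was at least 3834-fold higher in liver than in uterus with BPA (0 uterine counts, taken as a floor of 3 counts in that library), but 31.6-fold (95% counting interval 28.4 to 35.2) higher with KRG and 76.4-fold (65.1 to 90.3) higher in controls. Otc had 1 count in each uterus given BPA, and was 23.1-fold (19.5 to 27.7) higher in liver with KRG and 49.6-fold (39.2 to 63.8) in controls. Glul in liver was at 1.17-fold (1.12 to 1.22) of its uterus level with BPA, 0.90-fold (0.86 to 0.94) with KRG, 1.35-fold (1.28 to 1.41) with BPA and KRG and 1.05-fold (1.01 to 1.10) in controls.

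Put as percent of the liver level under the same treatment, the uterus of the KRG group held 3.17% of Cps1, 4.32% of Otc, 2.28% of Nags, 3.28% of Gls2 and 5.85% of Arg1, where the 12 hepatocyte markers had a median of 2.83% (range 1.53% to 10.999%). The control uterus held 1.31% of Cps1, 2.02% of Otc, 1.76% of Nags and 3.58% of Arg1, with a hepatocyte marker median of 1.37% (0.73% to 4.48%). In the uterus given BPA alone, Cps1 and Nags were at 0 counts, and Otc was at 0.026% of its liver level, where the marker median was 0.022%. In that library Gls2 was still at 1.10%, Arg1 at 0.80%, Gm5424 at 0.83%, Slc25a15 at 2.44%, Asl at 4.66%, Oat at 55.1% and Glul at 85.5%. Cps1, Otc and Nags thus had almost no counts in the uteri with few hepatocyte transcripts. By contrast, Arg1, Gls2, Gm5424, Asl, Slc25a15, Oat and Glul were counted in all 4 uteri. Without the control and KRG uteri, a choice made after seeing the data, the median log2 difference of the 10 members was 7.85 and all were called. Every member was highest in the uteri left out, so this fit could only widen the differences and does not test them.

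**Figure D2:**
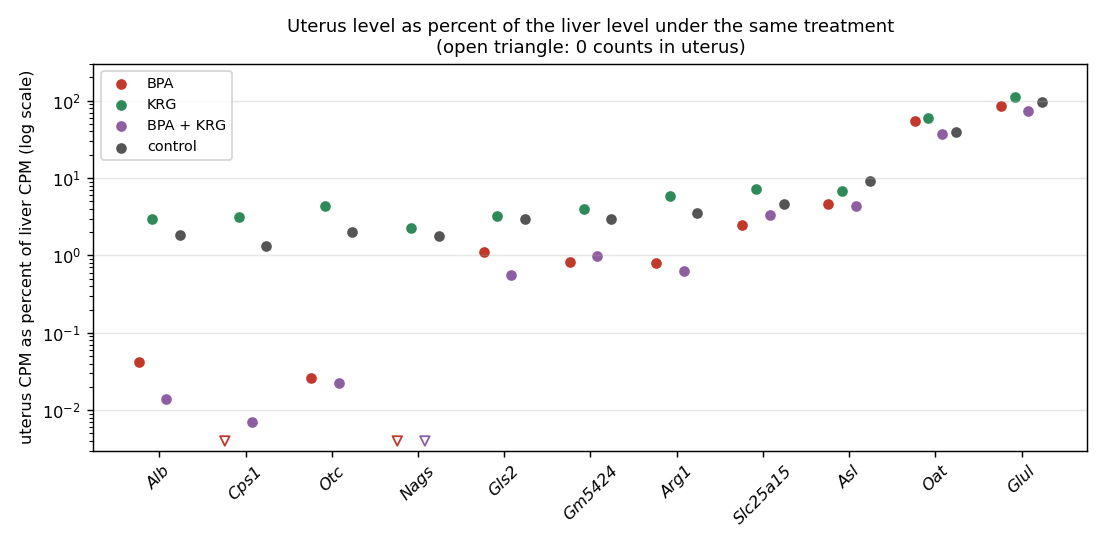
The CPM of each gene in the uterus as percent of its CPM in the liver under the same treatment, on a log scale, with Alb as a hepatocyte marker at the left; each point is 1 treatment and an open triangle marks 0 counts in the uterus. Alb, Cps1, Otc and Nags lie at 1.31% to 4.32% in the KRG and control pairs and below 0.05% in both pairs given BPA, whereas Oat and Glul lie between 37.2% and 111%.

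Paralogs and related genes were counted beside the members. Arg2, the mitochondrial arginase, stood at 66.3 to 81.9 CPM in livers and 132 to 169 CPM in uteri, so that Arg1 exceeded it 9.78-fold to 17.3-fold in livers and Arg2 exceeded Arg1 2.40-fold to 23.3-fold in uteri. Cad, whose carbamoyl phosphate synthetase activity serves pyrimidines, stood at 3.39 to 5.36 CPM in livers and 8.47 to 17.2 CPM in uteri. Slc25a12, the relative of the aspartate carrier Slc25a13, stood at 8.04 to 12.7 CPM in livers and 20.5 to 36.7 CPM in uteri. By edgeR's test between the tissues Arg2 (log2 difference -0.01, adjusted p = 0.94), Cad (-0.51, adjusted p = 0.071) and Slc25a12 (-0.53, adjusted p = 0.054) did not pass. The test uses TMM factors, which placed the median gene 0.94 higher in log2 than column totals did. The CPM above are on column totals, so the test and the CPM differ for these genes.

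Of 41 listed genes of ammonia and urea handling that are not members, 37 were tested between the tissues, 25 were higher in liver and 7 lower, with a median log2 difference of 2.97, where 32.3% of all genes tested were higher and 72.5% were called in either direction. Glud1, which releases ammonia from glutamate, stood at 2292, 2457, 2597 and 2449 CPM in the BPA, KRG, BPA with KRG and control livers and at 294 to 375 CPM in uteri. Slc25a13, the aspartate carrier that supplies the Ass1 step, stood at 280 to 317 CPM in livers and 34.5 to 44.9 CPM in uteri. Of 43 listed genes of amino acid breakdown, 41 were tested and 40 were higher in liver, at a median log2 difference of 5.40. In each liver 41 of the 43 reached 1 CPM, and in each uterus given BPA 26 did. Genes of either list that passed the filter through their livers could hardly have been anything but higher. Their part of these counts supports nothing further.

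In liver, the question was whether BPA, KRG or both moved the cycle. None of the members differed 2-fold between any of the 5 pairs of liver libraries compared, on the log2(CPM + 1) scale and at a mean of at least 10 CPM, which 9 members reached (Ass1 did not). This was 0 of 9 for BPA against control, where 4.28% of 6709 genes differed 2-fold, 0 of 9 for KRG against control (2.34% of genes), 0 of 9 for BPA with KRG against control (2.44%), 0 of 9 for BPA with KRG against BPA (3.68%) and 0 of 9 for BPA with KRG against KRG (2.79%). With 9 genes and such shares, a count of 0 is close to the background. The pairs with control share 1 control library, and no pair has a replicate.

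The widest liver contrasts of the members were near 1.4-fold. Asl was 1.37-fold (95% counting interval 1.29 to 1.44) of the control level with BPA, 1.44-fold (1.37 to 1.52) with KRG and 1.32-fold (1.25 to 1.40) with both. Arg1 was 1.21-fold (1.18 to 1.24), 1.17-fold (1.15 to 1.20) and 1.43-fold (1.40 to 1.47) of control in the same order, and Gls2 1.16-fold, 1.04-fold and 1.35-fold. Oat went the other way, at 0.71-fold (0.67 to 0.75), 0.73-fold (0.69 to 0.78) and 0.70-fold (0.65 to 0.74) of control. Nags with BPA and KRG together was 1.41-fold (1.27 to 1.56) of its level with BPA alone and 1.44-fold (1.30 to 1.59) of its level with KRG alone. Arg1, Gls2, Nags, Cps1 and, on column totals, Otc were highest in the liver given both agents. That library had the most neutrophil and Kupffer cell transcripts and the fewest erythroid ones, whose part was not tested. These intervals cover counting error only and say nothing of the spread between animals.

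**Figure D3:**
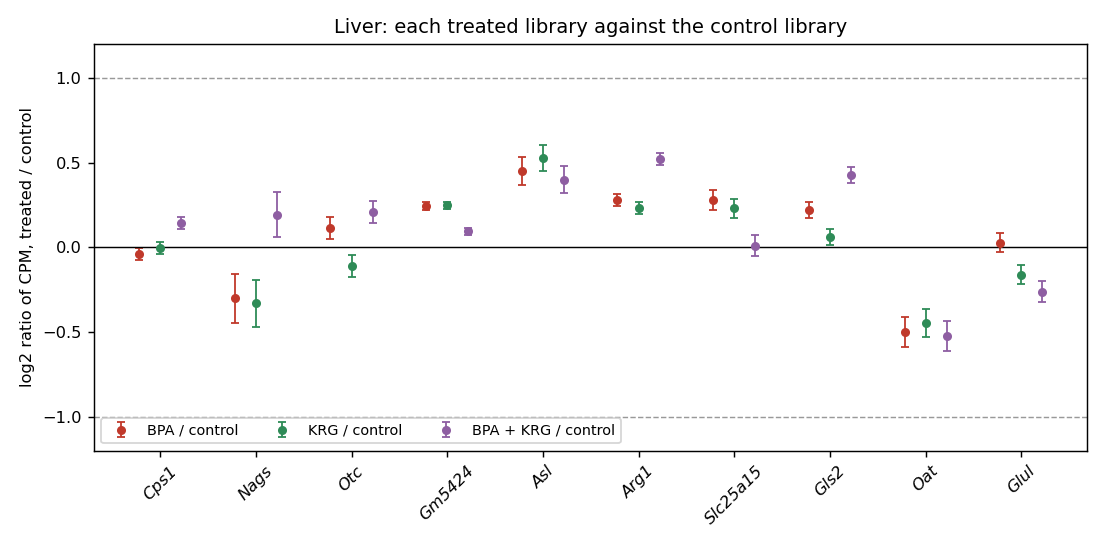
Log2 ratio of CPM in each treated liver to the control liver for the 9 members measured and Gm5424; points are the ratio of 2 libraries, bars the 95% counting interval, and dashed lines mark 2-fold. All points lie between the dashed lines, with Asl and Arg1 above 0 and Oat below 0 in each treatment.

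Cps1 was the steadiest member, with a 1.14-fold range over the 4 livers on the log2(CPM + 1) scale, smaller than in all but 10.4% of genes. The members' ranges had a median of 1.34-fold, and all 6709 genes one of 1.33-fold. Of 45 combinations of a member and a pair, 4 changed sign under another scaling: Cps1 with BPA and with KRG against control, Slc25a15 with both against control, and Otc with both against BPA. All 4 had log2 ratios between -0.04 and 0.09 on column totals. Relative to Cps1, Oat stood at 15.7%, 15.99%, 13.6% and 21.7% and Glul at 42.0%, 36.0%, 30.3% and 40.1% in the BPA, KRG, BPA with KRG and control livers.

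The additive model, which sets the 2 livers with an agent against the 2 without it, called 0 of 9 members for BPA and 0 of 9 for KRG by edgeR's quasi-likelihood test. It called 0% of the 6709 genes in either case, with 362 genes for BPA and 220 for KRG at an unadjusted p under 0.05, and no member among them. DESeq2 called 26 and 49 genes and no member. The members with the largest log2 coefficients were Oat (-0.29 ± 0.16, SE; adjusted p = 0.85; 0.85 to 1.00 over the alternatives) and Gls2 (0.29 ± 0.16; adjusted p = 0.84; 0.84 to 1.00) for BPA and Oat for KRG (-0.27 ± 0.16; adjusted p = 1.00 in the fit and in each alternative). The model has 1 residual degree of freedom, which is the interaction of the agents, so an effect of the combination alone would count as error.

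Zonation markers were set beside the members because the cycle and Glul sit at opposite ends of the lobule. Of the 14 listed pericentral markers, 10 reached the level filter. All 10 were below control with BPA (median log2 ratio -0.46), 10 of 10 with KRG (-0.38) and 8 of 10 with both (-0.47), where 60.9%, 57.5% and 44.4% of all genes were below control, at medians of -0.08, -0.05 and 0.04. With TMM factors the count with BPA was 8 of 10 and the others did not move. These comparisons share the control library. Of 13 periportal markers, 5, 7 and 6 were below control, with medians of 0.03, -0.06 and 0.22. Among the pericentral genes, Cyp2e1, an ethanol-oxidizing P450, stood at 864, 1148, 808 and 1406 CPM in the BPA, KRG, BPA with KRG and control livers. Slc1a2, the glutamate transporter of pericentral hepatocytes, stood at 59.6, 64.6, 57.8 and 94.6 CPM. Both were highest in the control, as Oat was, while Glul was highest in the BPA liver and second in the control. Of the 10 markers 8 were below control in all 3 treated livers, where 26.7% of all genes were. Cyp2c37 (234, 135, 332 and 241 CPM) and Cyp2a5 (280, 424, 608 and 565 CPM in the same order) were highest in the liver given both agents. Of the 13 periportal markers, 4 were below and 5 above control in all 3 treated livers. Of the 9 members measured, 1 (Oat) was below and 4 (Asl, Arg1, Gls2 and Slc25a15) were above in all 3. Among all genes 18.9% were above in all 3. The lists have no test, since each treatment is 1 library.

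**Figure D4:**
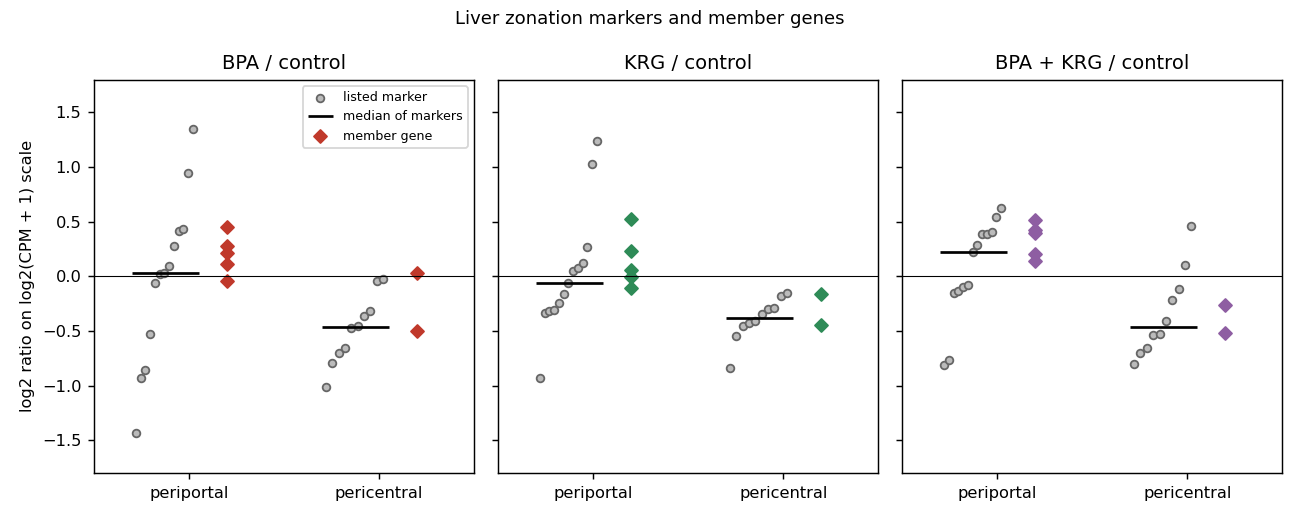
Log2 ratio on the log2(CPM + 1) scale of each treated liver to the control liver, for listed zonation markers (circles, with the median as a line) and members of the same zone (diamonds: Cps1, Otc, Asl, Arg1 and Gls2 as periportal, Glul and Oat as pericentral). The pericentral medians lie at -0.46, -0.38 and -0.47 and the periportal medians at 0.03, -0.06 and 0.22.

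Some genes around the cycle stood past 2-fold in liver pairs. Of the 41 accessory genes 26 were measured. In BPA against control 1 passed 2-fold upward and 1 downward, in KRG against control none did, and in both against control 1 passed upward and 1 downward. In both against BPA, and in both against KRG, 1 passed downward. These counts of 0 to 2 among 26 genes lie near the shares of all genes in the same pairs, 4.28%, 2.34%, 2.44%, 3.68% and 2.79%. Aqp8, a channel that passes ammonia as well as water, stood at 238, 197, 215 and 105 CPM in the BPA, KRG, BPA with KRG and control livers. Car5a, the mitochondrial carbonic anhydrase that supplies bicarbonate to Cps1, stood at 37.5, 40.2, 5.82 and 40.5 CPM. The library given both agents was thus the low one for Car5a and the control the low one for Aqp8. Slc25a22, a mitochondrial glutamate carrier, stood at 17.1, 37.8, 28.1 and 41.8 CPM, lowest with BPA.

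Among the amino acid genes, of which 39 of 43 were measured, Csad, which decarboxylates cysteine sulfinate on the way to taurine, stood at 478, 300, 317 and 136 CPM in the BPA, KRG, BPA with KRG and control livers. Sds, which releases ammonia from serine and is a periportal marker, stood at 21.6, 50.6, 54.0 and 60.04 CPM. Etnppl stood at 134, 107, 60.5 and 51.7 CPM. The list had 2 genes past 2-fold upward and 1 downward in BPA against control (4.28% of all genes either way), 2 and 0 in KRG against control (2.34%), 1 and 0 in both against control (2.44%), 1 and 1 in both against BPA (3.68%), and 2 and 0 in both against KRG (2.79%).

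Of 19 listed regulators of cycle genes 16 were measured. Against control, 0 passed 2-fold with BPA (4.28% of all genes), 1 with KRG (2.34%) and 0 with both (2.44%), counts that lie near these shares. The 1 gene was Ppargc1a, a coactivator of the fasting response, at 19.2, 26.04, 12.6 and 10.9 CPM in the BPA, KRG, BPA with KRG and control livers. Cebpa, a factor on which hepatic cycle genes depend in mice, stood at 639, 620, 847 and 907 CPM, and Gcgr, the glucagon receptor, at 195, 145, 205 and 164 CPM.

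In uterus, BPA was compared in the same way, and here 5 members reached the level filter (Asl, Arg1, Glul, Oat and Slc25a15). By the additive model 1 of 5 was lower with BPA, Arg1, where 0.891% of 9198 genes were called lower and 2.22% were called in either direction. Its log2 coefficient was -2.47 ± 0.33 (SE; adjusted p = 0.028 by edgeR; 2.7e-07 to 0.065 over the alternatives), and it was lost with column totals. Gm5424, the row that holds nearly all counts of the Ass1 type, was also called lower (-1.94 ± 0.26; adjusted p = 0.027) and was likewise lost with column totals (adjusted p = 0.059). The hepatocyte markers moved with it: 9 of 10 tested were called lower with BPA (median -6.37), and their sum was 151 and 202 CPM in uteri given BPA, against 2003 and 861 CPM in those without. Hp made up 109 and 147 CPM of the sums with BPA. The split of hepatocyte transcripts is the split by BPA, so the 2 cannot be told apart for Arg1 or Gm5424. Neutrophil markers summed to 204 and 204 CPM in the uteri with BPA, against 1278 CPM with KRG and 331 CPM in the control, erythroid markers to 2265 and 814 CPM with BPA, against 3740 CPM with KRG and 4998 CPM in the control, and adipocyte markers to 3060, 9132, 3516 and 2728 CPM in the BPA, KRG, BPA with KRG and control uteri. Their part in the Arg1 and Gm5424 results was not tested.

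The other members tested in uterus were not called for BPA: Slc25a15 had a log2 coefficient of -1.06 ± 0.31 (adjusted p = 0.22), Asl -0.73 ± 0.27 (0.33), Glul -0.47 ± 0.24 (0.47) and Oat -0.45 ± 0.26 (0.53). No member was called for KRG, where 0% of genes were called, no member had an unadjusted p under 0.05 and DESeq2 called no member. In pairs of uteri, the count of members at least 2-fold apart was 1 of 5 for BPA against control (4.69% of genes), 0 of 5 for KRG against control (3.84%), 1 of 5 for both against control (8.76%), 0 of 5 for both against BPA (3.22%) and 2 of 5 for both against KRG (11.6%). The member was Arg1 in each case, with Slc25a15 beside it in the last pair, both lower in the library given BPA with KRG. Gm5424 was past 2-fold in the same 3 pairs, at 0.34-fold of control with BPA, 0.36-fold of control with both, and 0.22-fold of the KRG level with both. Glul and Oat stood lowest in the uterus given both agents, Glul at 0.65-fold (0.62 to 0.68) and Oat at 0.66-fold (0.60 to 0.73) of the control level, and that library also had the highest skeletal muscle sum, 1687 CPM against 89.2 to 215 CPM in the other uteri, whose part was not tested.

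The difference of the BPA effect between the tissues was tested for the 5 members that reached the filter in both. Arg1 was called (log2 difference 2.76 ± 0.41, liver minus uterus; adjusted p = 0.033 by edgeR; 0.035 with column totals), where 1.58% of 5966 genes were called. Its pairs went opposite ways: 1.21-fold and 1.22-fold of the level without BPA in livers, and 0.27-fold and 0.13-fold in uteri. The split of hepatocyte transcripts in the uteri applies here as well. Asl, Glul, Oat and Slc25a15 were not called (adjusted p = 0.36 to 0.88). For KRG 0 of 5 members and 0% of genes were called by edgeR, with 294 genes and no member at an unadjusted p under 0.05.

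Over the 8 libraries, the genes whose log2(CPM + 1) profile lay closest to the summed CPM of Cps1, Otc, Ass1, Asl and Arg1 were Haao (Euclidean distance 0.34), Arg1 itself (0.37), Uroc1 (0.38), Cyp2c39 (0.42) and Nr1i3 (0.43), among 6709 genes. Haao and Uroc1 take part in tryptophan and histidine breakdown. All 5 profiles hold the contrast of livers and uteri and the hepatocyte transcripts of the KRG and control uteri: Haao was at 141 to 173 CPM in livers and at 0, 5.47, 0 and 2.32 CPM in the BPA, KRG, BPA with KRG and control uteri. Closest to Glul were Sec24d (0.35), Smim13 (0.36), Fam162a (0.37), Mycbp (0.38) and Dpy19l1 (0.39), all at similar levels in both tissues and lowest in the uterus given both agents. Fam162a, for example, stood at 87.0 to 93.8 CPM in livers and at 93.1, 95.8, 64.0 and 106 CPM in the BPA, KRG, BPA with KRG and control uteri.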

How the data were processed

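The deposited files hold whole-number counts per gene symbol, 1 column per library. Per the submitters' processing notes, the authors used Bowtie2, edgeR and mm10, with no versions or roles; the counter, strand use and handling of reads with several matches are not stated in those sources. Per the labels' protocols, 500 ng of total RNA entered each library. The labels name no molecular identifiers, so intervals and floors cover counting error only. Of 23282 rows, 79 repeat a symbol, and members are unique; Rn45s took 8.30% to 12.4% of counts.

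Levels are CPM of column totals. Tests used edgeR 4.0.16 in R 4.3.3 (quasi-likelihood, TMM, Benjamini-Hochberg over all genes tested, threshold 0.05), with DESeq2 1.42.0 as an alternative. Only the edgeR fit was tried on simulated data. The tissue test took genes with at least 1 CPM in at least 4 libraries and tissue as the only term, so that treatments count as error; additive models of BPA and KRG took genes averaging 10 CPM or more over the tissue. Pairs of libraries were compared by the ratio of CPM with exact Clopper-Pearson 95% intervals, and as at least 2-fold on the log2(CPM + 1) scale. Since a group is 1 library, p-values measure the spread between these libraries. Transcript similarity was found with BLAST 2.17.0 on GENCODE release 21.

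Named genes are the members, up to 6 genes per list with the largest liver ratios (a selection of these is printed), paralog pairs (1 is not reported here), and 5 nearest profiles. Glud1, Gcgr, Slc14a1, Slc14a2, Rhcg, Rhbg, Slc7a1, Slc7a2, Spryd4 and Gm5424 were picked after their values were seen. Members, lists and tests were chosen with earlier results of these data known. No library was left out of the main tests.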

Additional observations from a re-analysis of the deposited data

Results flagged for a closer look

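Oat in the control liver, at 187 CPM, lay far above the other 3 livers (132, 137 and 130 CPM with BPA, KRG and both): the gap to the nearest was 0.871 of the whole range, above Dixon's 95% critical value for 4 samples. Of 20 sets of 4 libraries examined, chance alone would mark about 1.

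Arg1 differed between the tissues in its contrast with BPA. In livers it stood at 1.21-fold of control with BPA and at 1.22-fold of the KRG level with both agents, and in uteri at 0.269-fold and 0.132-fold in the same pairs. The test of the difference gave a log2 value of 2.76 (edgeR, adjusted p = 0.033). Hepatocyte transcripts in the uteri split the same way as BPA and cannot be told apart from it.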

How the results depend on the processing

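All 10 members were higher in liver than in uterus under each alternative except column totals, where 9 were and Glul was not (log2 difference 0.13, adjusted p = 0.52). Leaving out each library in turn kept the count at 10 (lowest 10, highest 10), and Cps1 then ranged from a log2 difference of 6.98 to 8.85. Cps1, Otc, Nags and Ass1 again passed the filter through their livers, so their part of this count supports nothing further. No member was called for BPA or KRG in liver, or for KRG in uterus, under any alternative run. For BPA in uterus, 1 of 5 members was called in the main test (2.22% of 9198 genes) and 0 of 5 with column totals (0.989%). With a filter of 1 CPM 3 of 8 were called (2.36% of 14166 genes), and with no filter 4 of 10 (3.37% of 18658). The added ones were Cps1, Otc and, with no filter, Gls2, all of which lay below the main filter. Cps1 and Otc reached 1 CPM only through the control and KRG uteri, so they could only be lower with BPA. Those uteri held the most hepatocyte transcripts, a split that cannot be told apart from BPA. Counts over all genes moved more. For BPA in liver 0 genes were called, against 32 with no filter and 26 by DESeq2; for KRG in liver 0, against 25 and 49; for BPA in uterus 204, against 91 with column totals, 334 at 1 CPM, 628 with no filter and 415 by DESeq2; for KRG in uterus 0, against 3 with no filter and 24 by DESeq2. In the liver pairs no member reached 2-fold under any scaling, pseudocount or filter tried, apart from Ass1 with both against KRG at a pseudocount of 0.25 CPM (log2 ratio -1.10, 13 against 37 counts, below the filter). TMM factors gave 108 genes 2-fold higher and 139 lower for BPA against control in liver, where column totals gave 82 and 205, and 95 and 117 for both against BPA, where column totals gave 158 and 89, with the median of all genes in both against BPA at 0.12 on column totals and -0.02 with TMM factors. Summing Ass1 and Gm5424, run for liver against uterus and for BPA and KRG in liver, changed no count of members called in those tests. The labels give no replicate numbers. With treatment as a term, which pairs the tissues by treatment, all 10 members were again higher in liver, and Cps1 had a log2 difference of 9.59 and Otc of 8.26. The additive models could not be refitted without a library, as no residual degrees of freedom would remain. At these depths, a count of 0 allows up to 0.196 to 0.242 CPM.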

Other observations

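Urea, ammonia and arginine carriers other than those described above differed in level between the tissues. Slc14a1, a urea transporter, stood at 18.7, 23.6, 20.9 and 23.8 CPM in the BPA, KRG, BPA with KRG and control uteri and at 0, 0.07, 0 and 0.26 CPM in the livers. Slc14a2 and Rhcg had 0 counts in all 8 libraries. Rhbg, an ammonia channel of pericentral hepatocytes, stood at 7.32, 5.89, 4.36 and 9.48 CPM in the livers, with the control highest. Slc7a1, the arginine carrier of most tissues, stood at 12.3 to 21.02 CPM in uteri and 0 to 0.92 CPM in livers, whereas Slc7a2, its liver relative, stood at 571, 722, 482 and 568 CPM in the BPA, KRG, BPA with KRG and control livers. These genes were listed with the accessory genes and have no test between treatments beyond those given above.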
